A study of Mus musculus with 9 samples.

Results

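Cohesin is the ring-shaped protein complex that holds sister chromatids together after DNA replication. The messenger RNA of 10 of its genes was followed here as spermatogonial stem cells (SSCs) left self-renewal in culture. The genes were chosen by name, for their role in the complex, and are 10 of the 46078 gene identifiers counted. They were 4 subunits known from meiosis (Rec8, Stag3, Smc1b and Rad21l), 5 subunits of the cohesin of dividing body cells (Smc1a, Smc3, Rad21, Stag1 and Stag2), and Sgo2a, which encodes a shugoshin that guards centromeric cohesin. All 10 passed the expression filter in each comparison.

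The cells were EGFP-SSCs, a single green fluorescent mouse line labelled as wild type and kept on mitomycin C-treated embryonic fibroblasts. The 0 h group was this line in normal culture. For 24 h or 48 h the line was mixed at 1:1 with testicular somatic cells, taken 3 to 7 days after birth from mice exposed to busulfan, which depletes germ cells. The co-culture medium held retinoic acid, BMP-4, BMP-7, activin A, testosterone, FSH and BPE, and green cells were then sorted by flow cytometry. Each time point had 3 biological replicates, for which no separate culture or sort was named, so p-values here measure only the spread between these samples.

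In a cohesin ring, a pair of SMC proteins (SMC3 with SMC1α or SMC1β) forms the arms, a kleisin closes them, and a STAG protein binds the kleisin. RAD21 is the kleisin of mitosis, while REC8 and RAD21L are kleisins known from meiotic chromosomes. STAG3 and SMC1β take the places of STAG1 or STAG2 and of SMC1α in meiotic cohesin. Germ cells are known to begin making REC8 around the time they commit to meiosis, when retinoic acid also induces Stra8.

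The 9 libraries held from 16825251 to 22201892 counts, and replicates differed from each other by more than counting error, so each counted as 1 sample. Levels are given in CPM, read counts scaled to library size after TMM normalization of the 9 libraries. All 8 germ cell markers (Ddx4, Dazl and others) had over 3 counts in every library, with a summed level from 1850 to 2910 CPM. Summed markers of fibroblast, myoid, Sertoli and Leydig cells were higher at 24 h and 48 h than at 0 h. The 8 fibroblast and stromal markers summed to 317 to 411 CPM at 0 h, 2140 to 2500 CPM at 24 h and 2950 to 3270 CPM at 48 h. The 6 myoid markers went from 13.8 to 15.6 CPM through 146 to 208 CPM to 263 to 321 CPM. The 10 Sertoli markers went from 24.6 to 26.0 CPM through 75.5 to 129 CPM to 115 to 130 CPM, although Fshr, which defines these cells, stayed at or under 3 counts in every library. The 6 Leydig markers went from 4.49 to 7.00 CPM to between 28.7 and 44.8 CPM at 24 h and between 29.1 and 37.3 CPM at 48 h. Summed endothelial markers were lower later (70.1 to 77.2 CPM at 0 h, 20.9 to 24.0 CPM at 48 h), as were macrophage markers (15.3 to 17.5 CPM and 6.34 to 9.17 CPM). Single markers did not all follow their sums at 24 h against 0 h. Of 8 fibroblast and stromal markers tested, 5 were called higher and 1 lower, and of 9 Sertoli markers 7 higher and 2 lower. Of 5 endothelial markers 1 was higher and 3 lower, and of 3 macrophage markers 1 higher and 1 lower. Called higher were 5 of 6 myoid, 3 of 4 Leydig and 2 of 8 germ cell markers, with 0 lower in each list. Over all genes tested, 11.4% were called higher and 14.2% lower. These lists moved with the same contrasts as the cohesin genes, and their part in the results below was not tested. In such bulk samples, fewer cells of a type and less RNA per cell cannot be told apart.

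The 0 h libraries also differed among themselves along base composition. In replicate 1 at 0 h, the 4203 genes of lowest GC content (29.6% to 45.1%) lay 0.37 above the 0 h mean on the log2 scale (median), and those of highest GC content (54.6% to 76.3%) lay at -0.23. Replicate 3 at 0 h was the opposite, at -0.42 and 0.20. At 24 h and 48 h these medians stayed between -0.10 and 0.09. Smc1b, Rad21l, Smc3, Stag1, Stag2 and Sgo2a have transcripts of 38.1% to 42.3% GC. A fit that takes GC content and length into account through offsets is therefore given beside the results whose call it changes, and beside some others.

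DNA upstream of the genes is shown for the meiotic subunits whose window lies wholly or partly outside the transcribed region, and for Smc1a as the mitotic partner of Smc1b. Only the part outside is printed. RefSeq start sites (build GRCm38.p6) matched 8 of the 10 genes, Rad21 and Stag2 being without an entry. The stretches end just before the gene's first annotated base, run 5′ to 3′ along the gene, and carry in capitals any match to 4 motifs searched on both strands: CNCCTCAG (the element bound by STRA8 and MEIOSIN), TCCCGC (the core bound by E2F6), CACGTG (an E-box) and AGGTCA (a retinoic acid receptor half-site).
Rec8 (chr14:55617916-55618036, plus strand): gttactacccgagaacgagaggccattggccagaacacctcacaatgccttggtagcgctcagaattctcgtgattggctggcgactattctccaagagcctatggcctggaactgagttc
Smc1b (chr15:85131965-85132207, minus strand): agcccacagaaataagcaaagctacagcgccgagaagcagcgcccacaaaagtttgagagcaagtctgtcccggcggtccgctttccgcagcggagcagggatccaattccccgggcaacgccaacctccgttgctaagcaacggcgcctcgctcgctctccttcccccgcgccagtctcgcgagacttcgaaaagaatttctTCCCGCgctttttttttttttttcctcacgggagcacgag
Rad21l (chr2:151668534-151668783, minus strand): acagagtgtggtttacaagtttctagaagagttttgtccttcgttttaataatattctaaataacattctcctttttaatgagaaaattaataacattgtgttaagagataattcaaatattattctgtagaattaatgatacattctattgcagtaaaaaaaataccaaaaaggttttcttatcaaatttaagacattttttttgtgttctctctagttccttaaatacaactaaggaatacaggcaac
Smc1a (chrX:152016178-152016427, plus strand): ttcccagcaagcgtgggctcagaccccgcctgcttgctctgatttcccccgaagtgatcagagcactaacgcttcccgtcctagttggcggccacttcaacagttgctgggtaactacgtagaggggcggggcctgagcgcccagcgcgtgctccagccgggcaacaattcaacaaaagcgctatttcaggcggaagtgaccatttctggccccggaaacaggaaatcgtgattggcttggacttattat

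The only capitals are a TCCCGC 47 bases before the RefSeq start of Smc1b. Rec8 also holds a TCCCGC, 38 bases before its RefSeq start, in a transcribed stretch that is not printed. Stag1 holds it 15 bases before the start, Smc3 holds it on the other strand, and a downstream start of Sgo2a holds it 52 bases away. Of 27025 promoters of 250 bases, 16.9% hold TCCCGC, 6.39% CNCCTCAG, 6.05% CACGTG and 13.8% AGGTCA. None of the 8 matched genes holds CNCCTCAG in this window, Stag3 holds CACGTG, and the upstream start of Sgo2a holds AGGTCA on the other strand. The Smc1b and Smc1a windows hold 25 and 16 CG dinucleotides, against a median of 6.00 over all promoters. The Rec8 window of 250 bases, of which 121 are printed, holds 10. The Rad21l window, at 25.6% GC, holds 1, and 19.4% of promoters hold at most 1. A match is a description of the letters, not of a bound site.

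Rec8 showed the clearest change of the 10 genes. Rec8 (ENSMUSG00000002324, chr14:55618037-55625395, plus strand) was at 21.2, 24.3 and 22.0 CPM in the 0 h libraries, at 118, 110 and 105 CPM at 24 h, and at 63.9, 65.6 and 61.1 CPM at 48 h. The 3 time points did not overlap, and 24 h was highest in every replicate. Rec8 was thus 4.97-fold higher at 24 h than at 0 h (log2 2.31, SE 0.12, edgeR adjusted p = 2.71e-05). At 48 h it was 2.83-fold higher than at 0 h (log2 1.50, SE 0.11, adjusted p = 8.59e-05) and 1.76-fold lower than at 24 h (log2 -0.81, SE 0.07, adjusted p = 0.000187). It passed the threshold of 0.05 in each of the 15 alternatives of each comparison. With GC and length offsets the log2 differences of Rec8 were 2.38, 1.77 and -0.62 in the same order.

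Stag3 (ENSMUSG00000036928, chr5:138280240-138312393, plus strand), the meiotic STAG subunit, was abundant already at 0 h, at 440, 398 and 377 CPM. It stood at 541, 558 and 522 CPM at 24 h and at 436, 450 and 465 CPM at 48 h. The 24 h libraries lay above all others, while 0 h and 48 h overlapped. Stag3 rose 1.35-fold at 24 h (log2 0.43, SE 0.11, edgeR adjusted p = 0.0237) and fell 1.21-fold from 24 h to 48 h (log2 -0.27, SE 0.06, adjusted p = 0.0130). Against 0 h, its 48 h level gave a log2 difference of 0.15 (SE 0.10, adjusted p = 0.315). The 24 h rise lost its call without 0 h replicate 2 (adjusted p = 0.0869) and without any of the 24 h replicates 1, 2 and 3 (adjusted p up to 0.105). The fall to 48 h lost it without 48 h replicate 1 (0.0968).

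Rad21l (ENSMUSG00000074704, chr2:151645404-151668533, minus strand), the germ-line kleisin active in early meiotic prophase, stood at 24.5, 17.1 and 7.72 CPM at 0 h, at 8.94, 8.02 and 9.72 CPM at 24 h, and at 12.0, 11.3 and 12.4 CPM at 48 h. The 0 h libraries spread over both later groups, and every 48 h library lay above every 24 h library. Rad21l rose 1.32-fold from 24 h to 48 h (log2 0.41, SE 0.12, edgeR adjusted p = 0.0381; 0.0575 with DESeq2). With GC and length offsets that difference was 0.20 (adjusted p = 0.266), and the lower levels at 24 h (log2 -0.87, adjusted p = 0.0229) and 48 h (log2 -0.67, adjusted p = 0.0480) against 0 h passed instead. Without offsets they missed the threshold (log2 -0.87 and -0.47, adjusted p = 0.139 and 0.388), except when 0 h replicate 3 was left out (adjusted p = 0.00318 and 0.0142). The rise from 24 h lost its call without 24 h replicate 1 (adjusted p = 0.0998), 24 h replicate 2 (0.110), 48 h replicate 1 (0.0976) or 48 h replicate 3 (0.108).

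Smc1b (ENSMUSG00000022432, chr15:85064689-85131964, minus strand), which encodes SMC1β, varied more between replicates than between times. Its levels were 317, 67.1 and 96.3 CPM at 0 h, 87.3, 88.4 and 156 CPM at 24 h, and 164, 53.0 and 194 CPM at 48 h. The highest and the lowest library of the series for Smc1b were thus a 0 h and a 48 h library, and all 3 groups overlapped. The log2 differences were -0.53 (SE 0.56) at 24 h against 0 h, -0.23 (SE 0.66) at 48 h against 0 h and 0.30 (SE 0.40) at 48 h against 24 h. Their edgeR adjusted p were 0.555, 0.825 and 0.626. With SEs of this size, changes of the order seen for Stag3 were not detectable for Smc1b. Without 0 h replicate 1 both differences from 0 h turned positive (log2 0.45 and 0.74, adjusted p = 0.271 and 0.260), and without 48 h replicate 2 the difference from 24 h passed (log2 0.69, adjusted p = 0.0365). With GC and length offsets the log2 differences of Smc1b were -0.43, -0.43 and 0.01 in the order above, and none passed.

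**Figure D1:**
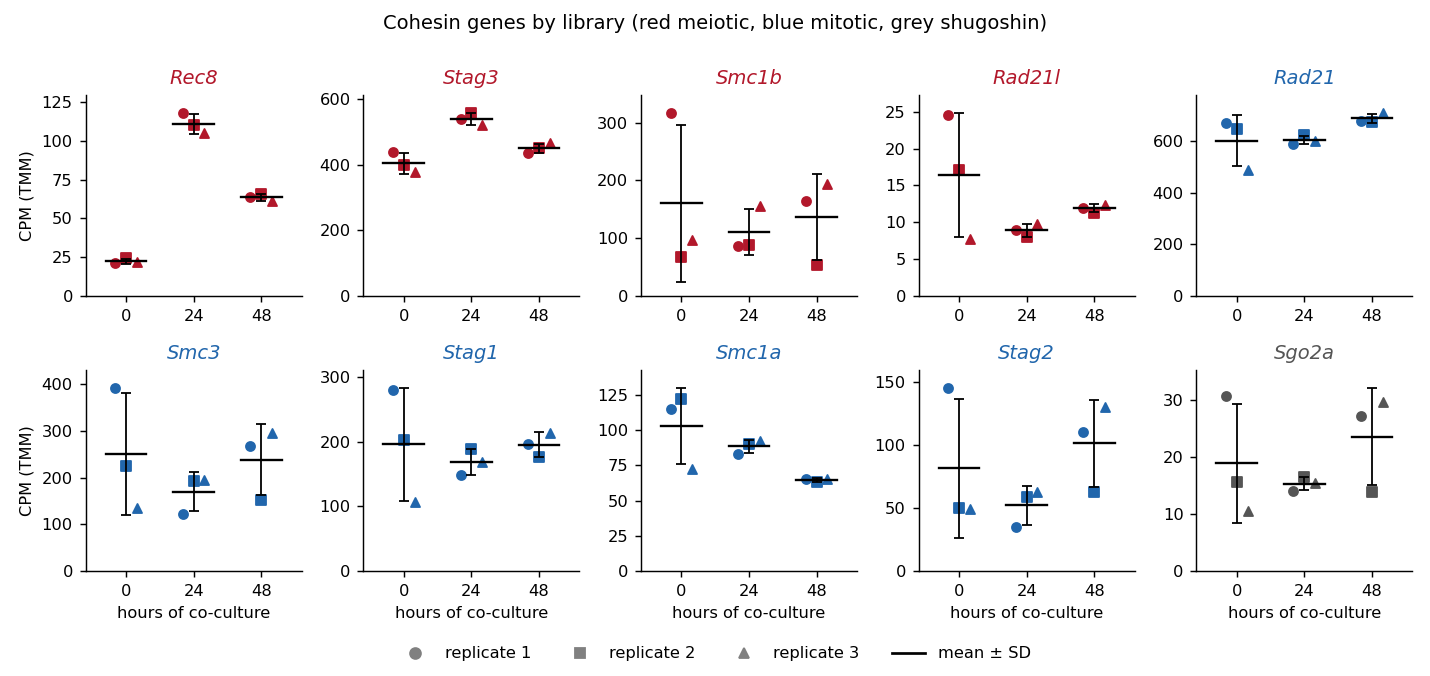
Levels of the 10 cohesin genes in each library, in CPM (linear axes from 0, scaled per gene) against hours of co-culture. Symbols are replicates 1 to 3, and bars are the mean ± SD of the 3 libraries of a time point. Rec8 separates into 3 levels, with means of 22.5, 111 and 63.6 CPM, while the 0 h values of Smc1b run from 67.1 to 317 CPM.

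Among the mitotic subunits, Smc1a had the clearest course, and it was downward. Smc1a (ENSMUSG00000041133, chrX:152016428-152062694, plus strand), an arm of the mitotic ring, was at 115, 122 and 72.3 CPM at 0 h, at 83.1, 90.1 and 92.1 CPM at 24 h and at 65.0, 63.1 and 65.3 CPM at 48 h. All 48 h libraries lay below all others, and the 0 h and 24 h groups overlapped. The fall from 24 h to 48 h was 1.38-fold (log2 -0.47, SE 0.07, edgeR adjusted p = 0.00189) and kept its call with each library left out in turn, but not in a joint fit of the 9 libraries (adjusted p = 0.159). The fall from 0 h to 48 h was 1.60-fold (log2 -0.68, SE 0.20, adjusted p = 0.0355). It lost its call without 0 h replicates 1 or 2 (adjusted p = 0.0537 and 0.121) and without 48 h replicates 1, 2 or 3 (0.115, 0.108 and 0.109). At 24 h against 0 h the difference was -0.21 (adjusted p = 0.499), and it passed without 0 h replicate 3 (log2 -0.38, adjusted p = 0.0191).

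Stag2 (ENSMUSG00000025862, chrX:42149317-42277185, plus strand), the STAG subunit known for centromere cohesion, was at 145, 49.9 and 48.7 CPM at 0 h. It was at 34.5, 58.7 and 62.4 CPM at 24 h and at 110, 62.9 and 130 CPM at 48 h. The 48 h libraries lay just above those of 24 h, with 62.9 against 62.4 CPM at the border, and 0 h overlapped both. Stag2 rose 1.93-fold from 24 h to 48 h (log2 0.95, SE 0.27, edgeR adjusted p = 0.0357; 0.0638 with DESeq2). With GC and length offsets the log2 difference was 0.61 (adjusted p = 0.0238). The call was lost without 24 h replicates 1 or 2 (adjusted p = 0.0988 and 0.0608) and without 48 h replicates 1 or 3 (0.0985 and 0.121). Against 0 h, the differences were -0.64 (SE 0.45) at 24 h and 0.30 (SE 0.47) at 48 h, with adjusted p = 0.360 and 0.675, and the latter passed without 0 h replicate 1 (log2 1.03, adjusted p = 0.0236).

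Rad21 (ENSMUSG00000022314, chr15:51962240-51991747, minus strand), the mitotic kleisin, was at 668, 645 and 487 CPM at 0 h, at 588, 621 and 599 CPM at 24 h and at 677, 674 and 708 CPM at 48 h. Every 48 h library lay above every earlier library, by a small margin over 0 h. The log2 differences were 0.02 (SE 0.14) at 24 h and 0.19 (SE 0.14) at 48 h against 0 h, and 0.18 (SE 0.06) at 48 h against 24 h. None passed edgeR's threshold (adjusted p = 0.943, 0.340 and 0.0638), and DESeq2 called the last (adjusted p = 0.0314). With offsets for GC content and length that difference was 0.06.

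Smc3 (ENSMUSG00000024974, chr19:53600398-53645833, plus strand) encodes the arm that mitotic and meiotic rings share. It ran from 135 to 392 CPM at 0 h, from 122 to 194 CPM at 24 h and from 152 to 296 CPM at 48 h, so the groups overlapped. Stag1 (ENSMUSG00000037286, chr9:100597798-100959375, plus strand), the STAG subunit known for telomere cohesion, ran from 106 to 280 CPM, from 149 to 188 CPM and from 176 to 214 CPM. Neither passed in any comparison. The edgeR adjusted p lay between 0.174 and 0.990, with log2 differences for Smc3 from -0.55 to 0.48 and for Stag1 from -0.21 to 0.20. Smc3 passed at 24 h against 0 h without 0 h replicate 3 (log2 -0.82, adjusted p = 0.0498) and at 48 h against 24 h without 48 h replicate 2 (log2 0.72, adjusted p = 0.0109). With GC and length offsets the differences ran from -0.53 to 0.28 for Smc3 and from -0.24 to -0.02 for Stag1, and none passed.

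Sgo2a (ENSMUSG00000026039, chr1:57995971-58025899, plus strand), the shugoshin that protects REC8 at meiotic centromeres, was at 30.6, 15.6 and 10.5 CPM at 0 h. It was at 14.1, 16.5 and 15.4 CPM at 24 h and at 27.2, 13.8 and 29.7 CPM at 48 h. The groups overlapped, and no difference passed in the edgeR fit of all 6 libraries. The log2 difference of 48 h against 24 h was 0.61 (SE 0.24, adjusted p = 0.102), which DESeq2 called (adjusted p = 0.0195). It also passed without 48 h replicate 2 (log2 0.88, adjusted p = 0.000542) and with no expression filter (adjusted p = 9.56e-06). With GC and length offsets that difference was 0.34 (edgeR adjusted p = 0.206). The value is uncertain for a further reason: 35.0% of the exonic bases of Sgo2a lie over exons of Kctd18 on the opposite strand. The library protocol names no step that marks strand, and without strand the reads of these genes cannot be told apart there. Of the other cohesin genes only Stag2 had such overlap, over 0.338% of its exonic bases.

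Counted over the group, 2 of the 10 cohesin genes passed at 24 h against 0 h, against 25.5% of the 17592 genes tested (11.4% higher and 14.2% lower). Both rose, and both were meiotic (Rec8 and Stag3), so 2 of 4 meiotic and 0 of 5 mitotic subunits passed, against the same 25.5%. None of the 5 mitotic subunits had an unadjusted p under 0.05 with edgeR, and DESeq2 called 0 as well. Without 0 h replicate 3, however, 2 of them passed (Smc1a and Smc3, both lower). Calls over all genes rose in that fit as well, to 6023 in place of 4494. SEs ran from 0.14 (Rad21) to 0.45 (Stag2) among mitotic subunits, and from 0.11 (Stag3) to 0.56 (Smc1b) among meiotic subunits. A difference between these groups was not tested. For 48 h against 0 h, 2 of 10 passed (Rec8 higher, Smc1a lower), against 31.6% of 17755 genes (13.0% higher and 18.5% lower). Between 24 h and 48 h, 5 of 10 passed, against 21.3% of 17499 genes (8.61% higher and 12.7% lower). Rad21l and Stag2 were higher there, and Rec8, Stag3 and Smc1a lower. All 3 comparisons share libraries, so these counts are not independent of each other.

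The median log2 difference of the 4 meiotic subunits was -0.05, -0.04 and 0.01 in the 3 comparisons in that order, and that of the 5 mitotic subunits -0.21, -0.01 and 0.20. Over all genes tested the medians were 0.0052, 0.017 and -0.0045. The meiotic range was wide, from -0.87 to 2.31 at 24 h against 0 h, since Rec8 and Rad21l lay at its ends. Libraries did not overlap for 2, 3 and 6 of the 10 genes, against 43.4%, 48.3% and 39.6% of all genes. With GC and length offsets 3, 3 and 4 of the 10 passed, against 36.2%, 43.1% and 21.7% of all genes. Without TMM, scaled on library totals only, the median over all genes stood at 0.12 and 0.13 in the comparisons with 0 h, and Smc1a lost its call at 48 h against 0 h.

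**Figure D2:**
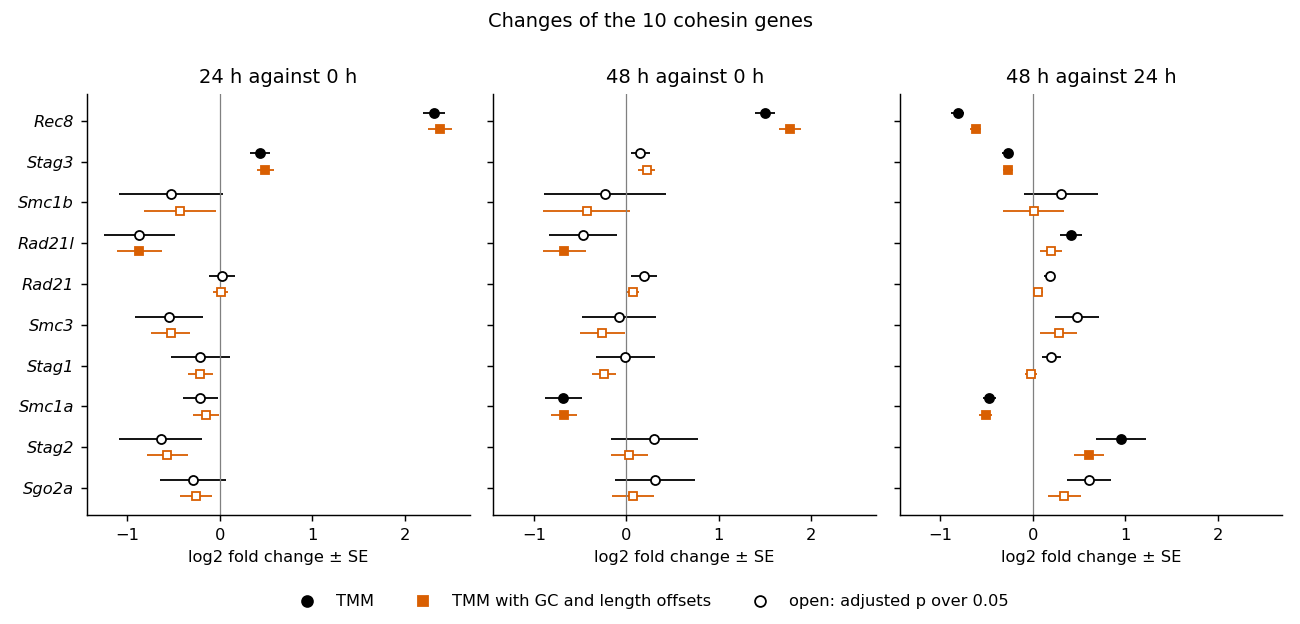
Log2 fold changes of the 10 genes (x axis, later over earlier time point, ± SE) in the 3 comparisons, from TMM-scaled fits (black circles) and from fits with GC and length offsets (orange squares). Filled symbols passed an adjusted p of 0.05. Rec8 lies at 2.31, 1.50 and -0.81, Rad21l is filled with offsets against 0 h and without them at 48 h against 24 h, and the SEs of Smc1b reach 0.66.

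The spread between replicates followed the gene. Rec8 (56.7% GC in its longest transcript) and Stag3 (49.1%) differed by at most 1.17-fold between the replicates of a time point. Smc1b (39.8%) differed 4.73-fold at 0 h, 1.78-fold at 24 h and 3.67-fold at 48 h. At 0 h, Rad21l (40.9%), Stag2 (38.1%), Sgo2a (40.5%), Smc3 (42.3%) and Stag1 (41.9%) differed 2.65- to 3.17-fold. Each of these was highest in 0 h replicate 1. After adjustment for GC content and length, the 0 h spread was 3.30-fold for Smc1b, 1.91-fold for Rad21l, 1.72-fold for Stag2 and 1.40-fold for Stag1. For Rec8 the adjustment widened it from 1.14- to 1.34-fold. At 48 h, Smc1b, Smc3, Stag2 and Sgo2a were all highest in replicate 3 and lowest in replicate 2.

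**Figure D3:**
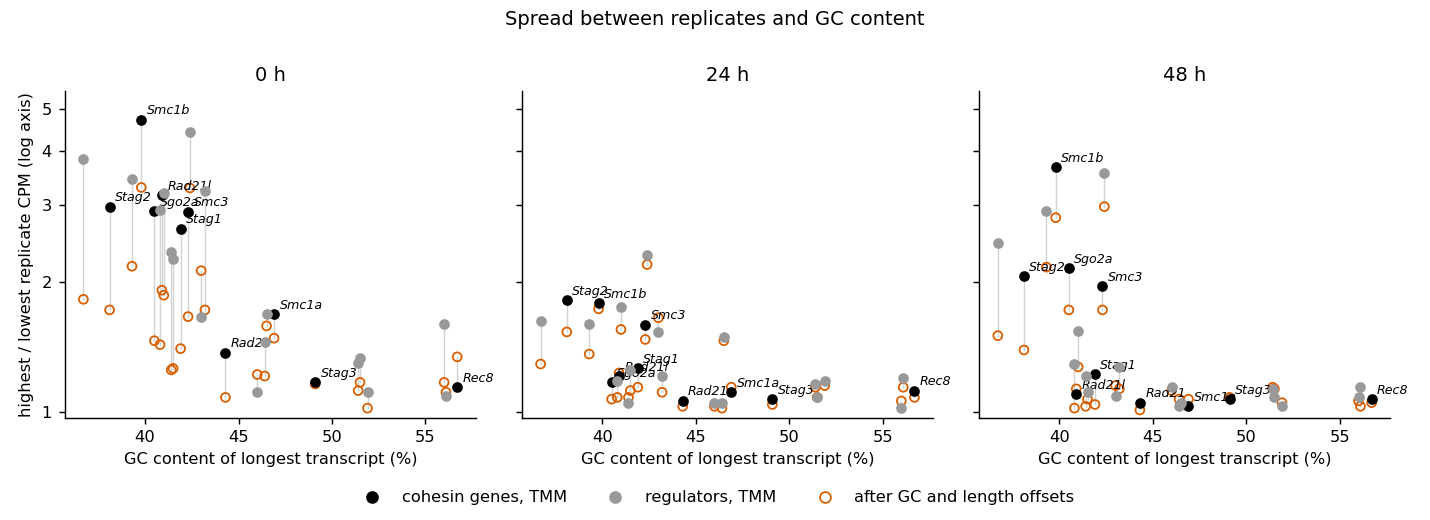
Spread between replicates, as the highest over the lowest CPM of a time point (log axis), against the GC content of the longest transcript, at 0 h, 24 h and 48 h. Black points are the 10 cohesin genes and grey points 17 regulators, with orange rings at the value after GC and length offsets. At 0 h Rec8 and Stag3, with 56.7% and 49.1% GC, lie at 1.14 and 1.17, while Smc1b reaches 4.73.

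Set per length, the order of the genes was led by the mitotic kleisin. FPKM, which is CPM per kilobase of exons, put Rad21 first at 142 ± 23.3, 142 ± 3.97 and 162 ± 4.43 (SD, n = 3) at 0 h, 24 h and 48 h. Stag3 came next at every time point, at 70.7 ± 5.61, 94.3 ± 3.21 and 78.6 ± 2.49 FPKM, without overlap with Rad21. Rec8 moved from rank 9 of 10 at 0 h (7.66 ± 0.544 FPKM) to rank 3 at 24 h (37.8 ± 2.13 FPKM) and rank 5 at 48 h (21.7 ± 0.772 FPKM). At 24 h its libraries (35.9 to 40.1 FPKM) lay below those of Stag3 and above those of Smc3 (30.7 ± 7.48 FPKM), but Smc1b, at rank 5, reached 38.5 FPKM in replicate 3 and overlapped them. At 0 h every neighbouring pair from Stag3 down to Rec8 overlapped in its libraries, so that stretch of the order was not resolved. Sgo2a was last throughout, at 2.70, 2.19 and 3.36 FPKM.

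Within the kleisins, Rec8 gained on Rad21 at 24 h and lost part of that gain by 48 h. Of the summed counts per kilobase of the 3 kleisins, Rec8 made up 4.91 ± 0.936% at 0 h (4.02%, 4.84% and 5.89%), 20.3 ± 1.19% at 24 h (21.7%, 19.8% and 19.6%) and 11.3 ± 0.628% at 48 h (11.5%, 11.9% and 10.7%). Rad21 kept the largest share, at 89.1 ± 1.34%, 76.8 ± 1.23% and 84.9 ± 0.543% (SD, n = 3). Rad21l made up 5.96 ± 2.27%, 2.89 ± 0.320% and 3.75 ± 0.129%. Rec8 and Rad21l thus had overlapping shares at 0 h, and Rec8 had the larger one in each later library. As a ratio within a library, Rec8 to Rad21 was 0.0545, 0.265 and 0.134 (mean log2 -4.20, -1.92 and -2.91, SD 0.25, 0.11 and 0.09). The ratio differed between time points in an exact permutation test over the 1680 assignments of the 9 libraries (two-sided p = 0.00357, the smallest this design can give, and 0.0214 adjusted over 6 ratios).

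Within the STAG family the meiotic member led in every library, also at 0 h. Stag3 made up 73.9 ± 8.34%, 82.1 ± 2.41% and 73.4 ± 3.83% of the family per kilobase, Stag1 16.6 ± 4.81%, 12.4 ± 0.974% and 15.4 ± 0.578%, and Stag2 9.56 ± 4.61%, 5.44 ± 1.52% and 11.2 ± 3.26%. Stag3 ranged from 65.0% to 81.6% at 0 h, so 24 h (80.6% to 84.9%) overlapped it. With the longest transcript as the length, Stag3 still led in every library, but its lowest share was 57.8% (0 h replicate 1). Stag1 then averaged 23.3% at 0 h. For SMC1, Smc1b held 63.1 ± 18.0%, 63.0 ± 6.71% and 71.2 ± 14.6%, and Smc1a outweighed it in 0 h replicate 2, with 44.0% Smc1b. With the longest transcript as the length, Smc1a did so in 48 h replicate 2 as well (49.3% Smc1b). Neither Stag3 to Stag2 (mean log2 3.05, 3.96 and 2.75, exact permutation p = 0.0821, adjusted 0.236) nor Smc1b to Smc1a (0.85, 0.78 and 1.40, exact permutation p = 0.654, adjusted 0.693) passed. The other ratios, Rad21l to Rad21, Stag1 to Stag2 and Sgo2a to Sgo1, had adjusted exact permutation p of 0.236, 0.327 and 0.693. Without 0 h replicate 3, Rad21l to Rad21 passed (adjusted exact p = 0.0107).

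**Figure D4:**
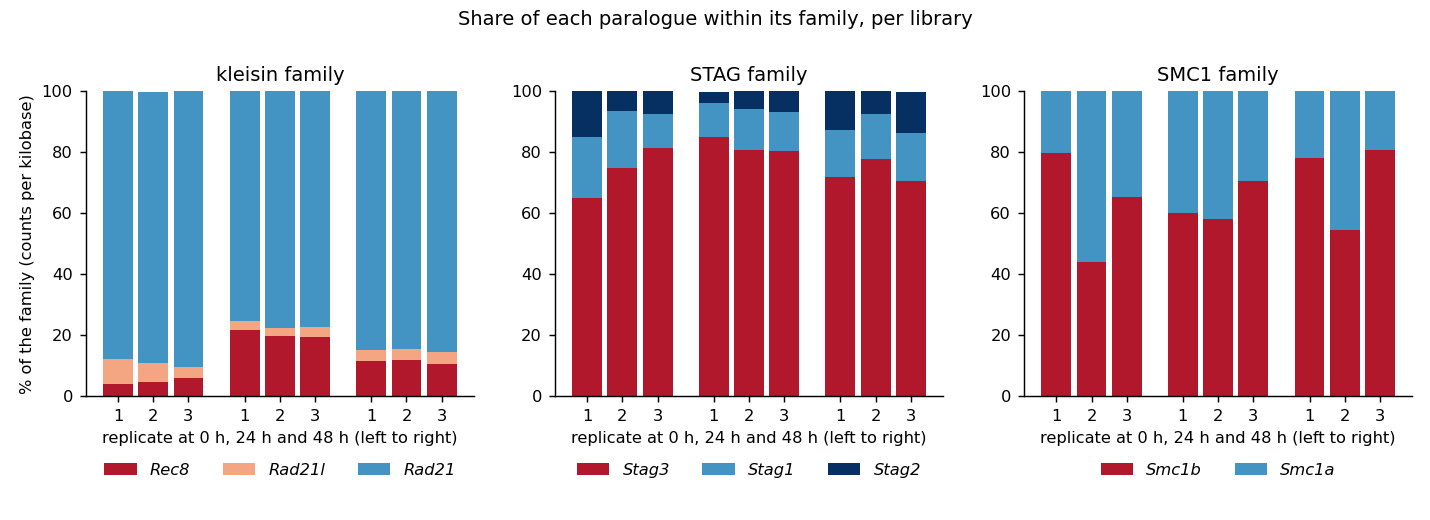
Share of each paralogue in the counts per kilobase of its family (y axis, %), as stacked bars per library, with replicates 1 to 3 at 0 h, 24 h and 48 h from left to right. Lengths are the union of exons. By this length Rec8 takes 4.02% to 5.89% of the kleisins at 0 h and 19.6% to 21.7% at 24 h. Stag3 takes at least 65.0% of the STAG family in every library.

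The 17 genes listed as cohesin regulators include factors that load, release, acetylate, protect or cut cohesin. They also include others, namely Ctcf, Bub1, Haspin, Hdac8, Pttg1 and Meikin. Of the 17, 1 passed at 24 h against 0 h, against the 25.5% above. It was Cdca5, which encodes sororin, the factor that keeps acetylated cohesin closed. Cdca5 was at 51.2, 52.5 and 68.1 CPM at 0 h, at 75.3, 77.0 and 81.2 CPM at 24 h and at 64.3, 65.5 and 69.8 CPM at 48 h. Every 24 h library lay above every other. It rose by log2 0.46 (SE 0.14, edgeR adjusted p = 0.0465), a call kept only without 0 h replicate 3 among the 6 libraries left out in turn, and not made by DESeq2 (adjusted p = 0.0571). From 24 h to 48 h it fell (log2 -0.24, adjusted p = 0.0353). Among the 6 libraries left out in turn, that call was kept only without 48 h replicate 3.

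For 48 h against 0 h, 0 of the 17 regulators passed with edgeR, against 31.6% of all genes. Of the 17, 1 had an unadjusted p under 0.05 (Espl1, log2 0.30, adjusted p = 0.0632), and DESeq2 called 0. With GC and length offsets 4 rose, against 43.1% of all genes called in either direction: Espl1 (separase, which cuts the kleisin at anaphase, log2 0.46, adjusted p = 0.00219), Plk1 (a kinase that helps remove arm cohesin, log2 0.37, adjusted p = 0.00906), Cdca5 (log2 0.36, adjusted p = 0.0174) and Haspin (a kinase of centromeric histone H3, log2 0.35, adjusted p = 0.0256). Between 24 h and 48 h, 3 of 17 passed, against 21.3% of all genes. That count ran from 0 without 24 h replicate 1 or 48 h replicate 1 to 7 without 48 h replicate 2. Calls over all genes in these 3 fits were 2044, 1857 and 4356, in place of 3732. Plk1 (log2 0.23, adjusted p = 0.0264) and Sgo1, the mitotic shugoshin (log2 0.31, adjusted p = 0.0442), were higher and Cdca5 lower. Among the 6 libraries left out in turn, Plk1 kept its call only without 24 h replicate 3. Sgo1 kept it there only without 24 h replicate 2 or 48 h replicate 2. DESeq2 called both (adjusted p = 0.0238 for Plk1 and 0.0307 for Sgo1), and Pds5b but not Cdca5. With offsets Plk1 (log2 0.41, adjusted p = 0.00156) and Espl1 (log2 0.29, adjusted p = 0.00856) passed.

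The loader Nipbl resembled Smc1b in its spread, at 134, 30.1 and 33.2 CPM at 0 h, 17.1, 28.2 and 39.3 CPM at 24 h and 57.7, 19.5 and 69.6 CPM at 48 h. Its differences of -1.21, -0.43 and 0.78 on the log2 scale had SEs of 0.61, 0.67 and 0.42 and did not pass (edgeR adjusted p = 0.194, 0.675 and 0.210). The last passed without 48 h replicate 2 (log2 1.16, adjusted p = 0.00736). It also passed with no expression filter (adjusted p = 1.81e-12), although the 24 h and 48 h libraries of Nipbl overlapped. Mau2, the partner of Nipbl, varied far less, from 96.0 to 123 CPM over the 9 libraries. It passed only at 48 h against 24 h without 24 h replicate 3 (log2 -0.25, adjusted p = 0.0457). Wapl, which opens the ring, ran from 158 to 369 CPM and passed in no comparison of all 6 libraries, but did at 48 h against 24 h without 48 h replicate 2 (log2 0.26, adjusted p = 0.0201). Securin (Pttg1), the inhibitor of separase, stayed between 30.0 and 36.3 CPM. Meikin, the meiosis-specific kinetochore partner of shugoshin and PLK1, was at 0.447 to 0.879 CPM, from 9 to 18 counts a library, at all times. Bub1, Esco1 and Esco2, given by name only, also differed widely between 0 h replicates. They passed at 48 h against 24 h without 48 h replicate 2. They also passed at 48 h against 0 h without 0 h replicate 1, as Esco1 and Esco2 did at 24 h against 0 h. Over the 17, the median log2 difference was 0.02, 0.16 and 0.18 in the 3 comparisons.

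**Figure D5:**
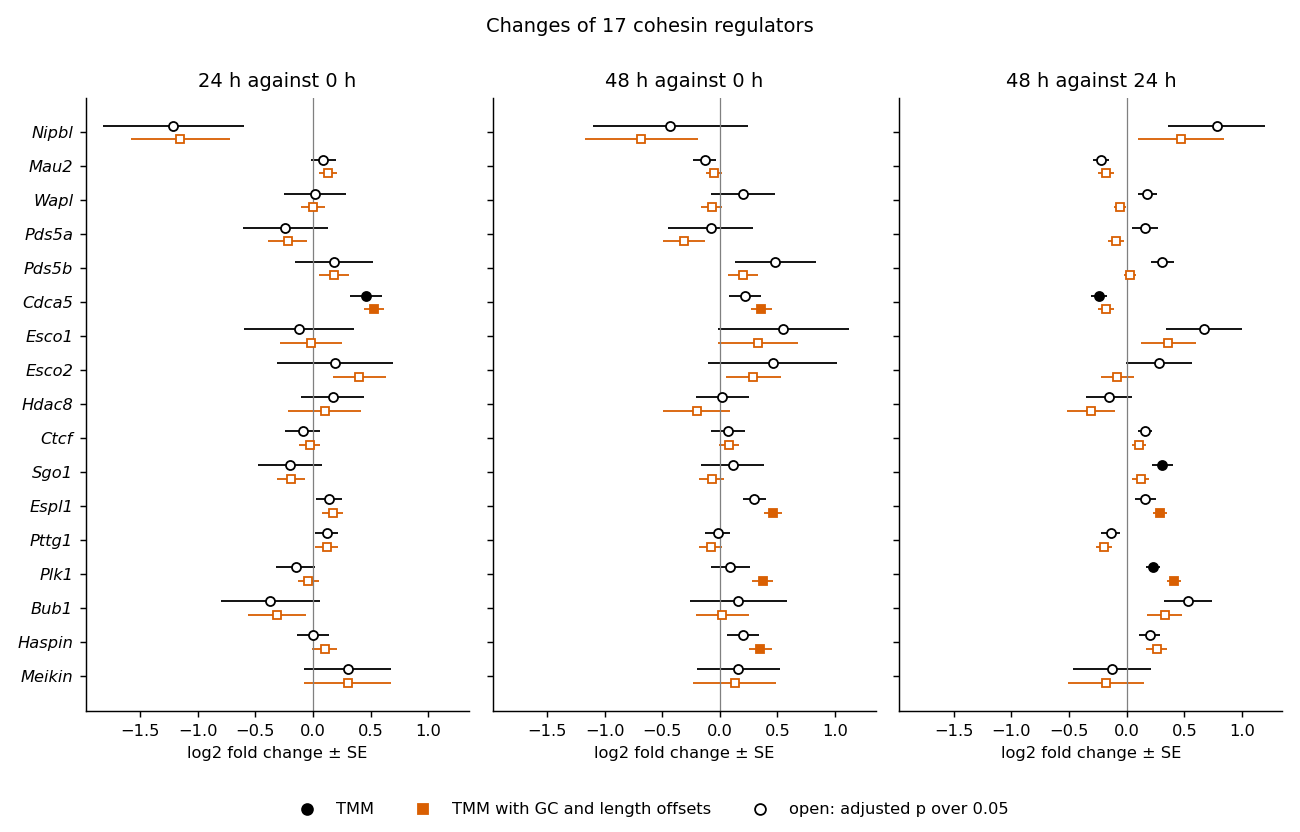
Log2 fold changes (x axis, ± SE) of 17 cohesin regulators in the 3 comparisons, from TMM-scaled fits (black circles) and fits with GC and length offsets (orange squares), filled where the adjusted p was at most 0.05. Cdca5 is filled at 24 h against 0 h (0.46), and Nipbl has the longest bars, with SEs of 0.61 and 0.67 against 0 h.

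The genes most like each meiotic subunit were sought among 10960 genes with at least 10 CPM in 1 time point, by the root mean square difference of centred log2 CPM over the 9 libraries. For Rec8 they were Zmym3, a zinc finger gene (0.176), Slx1b, a subunit of a structure-specific nuclease (0.189), and Irak2, a signalling kinase (0.204). Zmym3 went from 138 ± 5.05 CPM to 514 ± 26.0 CPM and 339 ± 15.0 CPM. For Stag3 they were Ppt1 (0.0387), Rfk (0.0601) and Rnf168 (0.0602), and Ppt1 had means of 16.1, 21.3 and 18.6 CPM. For Smc1b they were the condensin subunit Smc4 (0.139), the centriolar satellite gene Pcm1 (0.201) and the predicted gene Gm4631 (0.229). Smc4 had the same wide 0 h spread, at 132 ± 99.4 CPM. For Rad21l they were the Polycomb partner Mtf2 (0.117), the chromatin remodeller Chd1 (0.125) and the lipid flippase subunit Atp11b (0.142). Mtf2 went from 155 ± 67.8 CPM to 91.4 ± 5.54 CPM and 111 ± 12.3 CPM. These likenesses describe 9 libraries and carry no test.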

How the data were processed

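RNA from EGFP-SSCs at 0 h, 24 h and 48 h (3 libraries each, 9 in all) was poly-A selected and sequenced on a NovaSeq instrument. The authors deposited counts, whole numbers of reads per Ensembl gene, with no normalization. Per the labels, fastp, HISAT2, featureCounts and the build GRCm38 were used. The strand setting and annotation release are not given in the sources used here. Of 46078 identifiers, 45229 had an entry in GENCODE M21, from which symbols, exon lengths and positions came, and the rest took at most 0.121% of the counts of a library.

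Each comparison of time points used its 6 libraries in edgeR 4.0.16 (R 4.3.3), with filterByExpr, TMM normalization and the two-sided quasi-likelihood test, with Benjamini-Hochberg adjustment across every gene tested and a threshold of 0.05. SEs come from the same fits. Where a library is left out, an arm of 2 libraries remains. FPKM and shares used the union of exons. Ratios of paralogues were tested by exact permutation. The cohesin genes, the lists and the rule for named genes (the 10 genes, 17 regulators, and the 3 genes most like each meiotic subunit) were chosen with earlier results of these data known. Some regulators are given with values, and the others by counts or by name, although some of those passed in an alternative fit. Which ones was decided after their values were seen. Alternatives were DESeq2 1.42.0, its size factors, library size alone, no filter, a replicate block, a joint fit of the 9 libraries, a minimum of 10 counts in each library, GC and length offsets (splines with 5 and 4 degrees of freedom), both together, and each library left out. Overlap between genes was measured on M21 exons and with BLAST 2.17.0. Scripts were tested on simulated data.

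Replicate numbers were not used as pairs in the main fits, since pairing could not be established (see the dependence on processing). Promoter sequences are RefSeq's for GRCm38.p6.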

Additional observations from a re-analysis of the deposited data

How the results depend on the processing

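Rec8 kept its direction and its call in all 15 alternatives of each comparison. Whether the replicate numbers pair the libraries is not known. Same-numbered deviations correlated at -0.30, 0.01 and -0.09 between 0 h and 24 h, at 0.09, 0.21 and -0.31 between 0 h and 48 h, and at -0.03, -0.08 and 0.11 between 24 h and 48 h. Differently numbered libraries reached -0.43 and 0.43, and deviations within 3 libraries that also differ in GC trend cannot settle pairing. With the replicate block 1, 1 and 3 of the 10 cohesin genes passed, in place of 2, 2 and 5. The order is 24 h against 0 h, 48 h against 0 h and 48 h against 24 h. With the block 0 of the 17 regulators passed in any comparison. Calls over all genes were also fewer with the block in each comparison than the 4494, 5602 and 3732 of the main fits. Permuting labels within a replicate number left the Rec8 to Rad21 changes at 2.28, 1.29 and -0.99 (log2) with an adjusted p of 0.167, a design too small to pass. Library size alone left 1 of the 10 called at 48 h against 0 h. Between 24 h and 48 h, 8 passed with no expression filter. Calls over all genes were also more numerous there than the 3732 of the main fit. Smc1b, Smc3 and Sgo2a were added there, although the 24 h and 48 h libraries of each overlapped. With all 9 libraries in 1 fit, 1 passed (Rec8), and the genes called in all fell to 1043. Leaving out 1 library gave 1 to 5, 1 to 3 and 2 to 8 of the 10 genes and 2607 to 6023, 3471 to 7116 and 1857 to 4356 of all genes; the lowest came without 24 h replicate 2, 48 h replicate 1 and 48 h replicate 1. Fewer libraries remain in those fits. The cause of the other changes was not tested. Among ratios without 1 library, log2 changes of Rad21l to Rad21 ran from -1.08 to -0.48 (24 h minus 0 h), -0.85 to -0.24 (48 h minus 0 h) and 0.14 to 0.31 (48 h minus 24 h), Smc1b to Smc1a from -0.67 to 0.49 and from -0.05 to 1.12 against 0 h, and Sgo2a to Sgo1 from -0.09 to 0.09 at 24 h.

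Differences that had not passed changed sign as follows, as log2 values, for the genes given with values in the text. Without 1 library, at 24 h against 0 h, Smc1b ran from -0.89 to 0.45, Rad21 from -0.08 to 0.11, Stag1 from -0.48 to 0.15, Stag2 from -0.89 to 0.09, Sgo2a from -0.55 to 0.25, Wapl from -0.22 to 0.32, Sgo1 from -0.41 to 0.16 and Plk1 from -0.31 to 0.04. Likewise at 48 h against 0 h, Smc1b ran from -0.59 to 0.74, Smc3 from -0.35 to 0.40, Stag1 from -0.28 to 0.34, Nipbl from -0.77 to 0.62, Wapl from -0.04 to 0.49, Sgo1 from -0.11 to 0.47, Plk1 from -0.08 to 0.27 and Pttg1 from -0.06 to 0.04. Between 24 h and 48 h, Smc1b ran from -0.04 to 0.69 and Meikin from -0.25 to 0.08. Library size alone gave Smc3 0.03, Stag1 0.10 and Pttg1 0.09 at 48 h against 0 h. Stag1 was there at 0.01 with DESeq2, its size factors or at least 10 counts in every library, and at 0.09 with the replicate block. With GC and length offsets, Wapl was at -0.07 and Sgo1 at -0.07 at 48 h against 0 h, and Stag1 at -0.02 and Wapl at -0.06 at 48 h against 24 h. With the replicate block and these offsets, Wapl and Sgo1 were at -0.06 at 48 h against 0 h, and Smc1b was at -0.08, Stag1 at -0.02 and Wapl at -0.06 at 48 h against 24 h.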
